A study of Mus musculus with 6 samples.

Results

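The cell cycle and DNA replication genes are a set of 56 named genes, listed for what their products do. The set was chosen with earlier results of these data known. They fall into 15 S phase and replication genes, 18 mitotic genes, 8 G1 cyclins and kinases, 6 transcription factors of the cycle and 9 inhibitors and brakes. Each of the 56 had a probe among the 20145 genes named on the array, and 54 were among the 14847 genes tested. The probes of Aurkb, a mitotic kinase, and of Ccne2, an E-type cyclin, were not well above background on any of the 6 arrays and were not tested. Of the 54 members tested, 52 were well above background on all 6 arrays, and none passed the filter on dim probes through 1 genotype alone.

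The study asked what the transcription factor SOX17 does in the epithelium of the pregnant uterus. Whole uteri were taken at gestation day (GD) 3.5 of natural pregnancy, counted from the post-coital plug, after the embryos had been flushed out, and the females had been mated at 8 to 10 weeks of age. The 3 Sox17f/f mice carried the conditional allele on both chromosomes and no Cre, although the genotype field of their labels reads WT, and the 3 Sox17ed/ed mice carried the same alleles with LtfiCre, an improved Cre recombinase under the lactoferrin promoter. One mouse was hybridised to each array, a 1-colour Agilent G3 mouse expression array. LtfiCre deletes in the uterine epithelium and starts at puberty, so stroma, muscle, vessels and blood cells in the same RNA keep Sox17, and a change confined to 1 compartment is diluted by the others.

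A cell enters the cycle when G1 cyclins and their kinases inactivate the retinoblastoma proteins and release E2F factors, which turn on the genes for DNA synthesis. Later in the cycle MYBL2 and FOXM1 turn on the genes for chromosome segregation and division. In the mouse, luminal epithelial cells divide under estrogen early in pregnancy and stop before implantation, whereas stromal cells begin to divide under progesterone.

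All 6 arrays came from 1 slide and 1 scan, with the Sox17f/f arrays in 1 line of the slide and the Sox17ed/ed arrays in the other, so that line and genotype cannot be told apart. The share of probe spots brighter than background ranged from 60.7% to 65.7% in Sox17f/f and from 56.8% to 59.4% in Sox17ed/ed. Sox17 itself read 12.21, 12.07 and 12.22 on the Sox17f/f arrays and 9.75, 9.59 and 9.81 on the Sox17ed/ed arrays (log2 normalized signal), a log2 fold change of -2.45 (SE 0.09, adjusted p = 2.66e-05), so every array matched its label. All log2 fold changes are given as Sox17ed/ed minus Sox17f/f. Levels of different probes are not compared with each other, except where marker signals are summed and their brightest probes named. A gene was called at an adjusted p below 0.05, from limma with Benjamini-Hochberg adjustment over the 14847 genes, of which 18.9% were called, 8.84% higher and 10.1% lower in Sox17ed/ed.

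Of the 54 members, 12 were higher in Sox17ed/ed, 2 were lower and 40 were not called. The log2 fold change was above 0 for 47 members and below 0 for 7 (above 0 for 49.7% of all genes), and the median was 0.38, against 0.00 over all genes tested. The arrays of the genotypes did not overlap for 40 members, 36 of them with Sox17ed/ed above, beside 40.6% of all genes tested. In whole uterus, fewer cells of a type and less RNA per cell cannot be told apart, and the same holds for an increase. At the thresholds of the study's methods (unadjusted p below 0.01, fold change 1.4 or more in either direction), 5 members were higher and 2 lower, beside 6.04% and 6.47% of all genes. Of the 14 calls, 7 held in each of the 6 fits that left out 1 array, and the other 7 held in 1 of those fits. Those fits have fewer arrays, and the part of that in the lost calls was not tested. The count of members called higher was 5 without Sox17f/f replicate 1, 22 without Sox17f/f replicate 3 and 5 without Sox17ed/ed replicate 1. It was 7 without either of the other Sox17ed/ed replicates in turn. Over all genes, 794 were called higher without Sox17f/f replicate 1, 1323 without Sox17f/f replicate 3 and 864 without Sox17ed/ed replicate 1. That number was 948 without Sox17ed/ed replicate 2 and 853 without Sox17ed/ed replicate 3, beside 1312 with all 6 arrays.

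**Figure D1:**
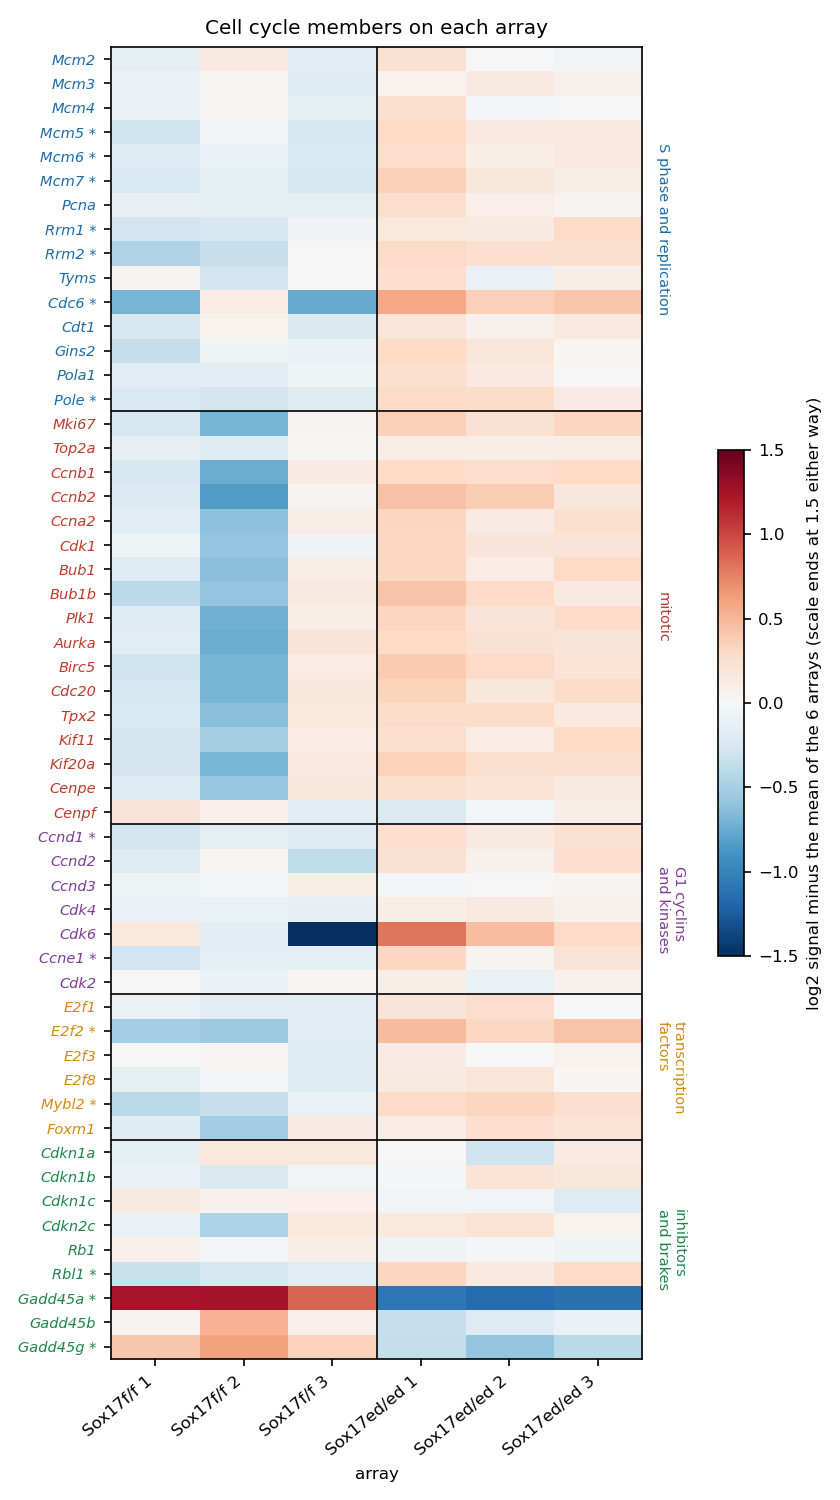
Heat map of the 54 members tested (rows, grouped by role) on the 6 arrays (columns). Colour gives the log2 normalized signal minus the gene's mean over the 6 arrays, and an asterisk marks the 14 members with an adjusted p below 0.05. Most rows outside the inhibitors turn from blue in Sox17f/f to red in Sox17ed/ed, and the mitotic rows are bluest in Sox17f/f replicate 2.

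**Figure D2:**
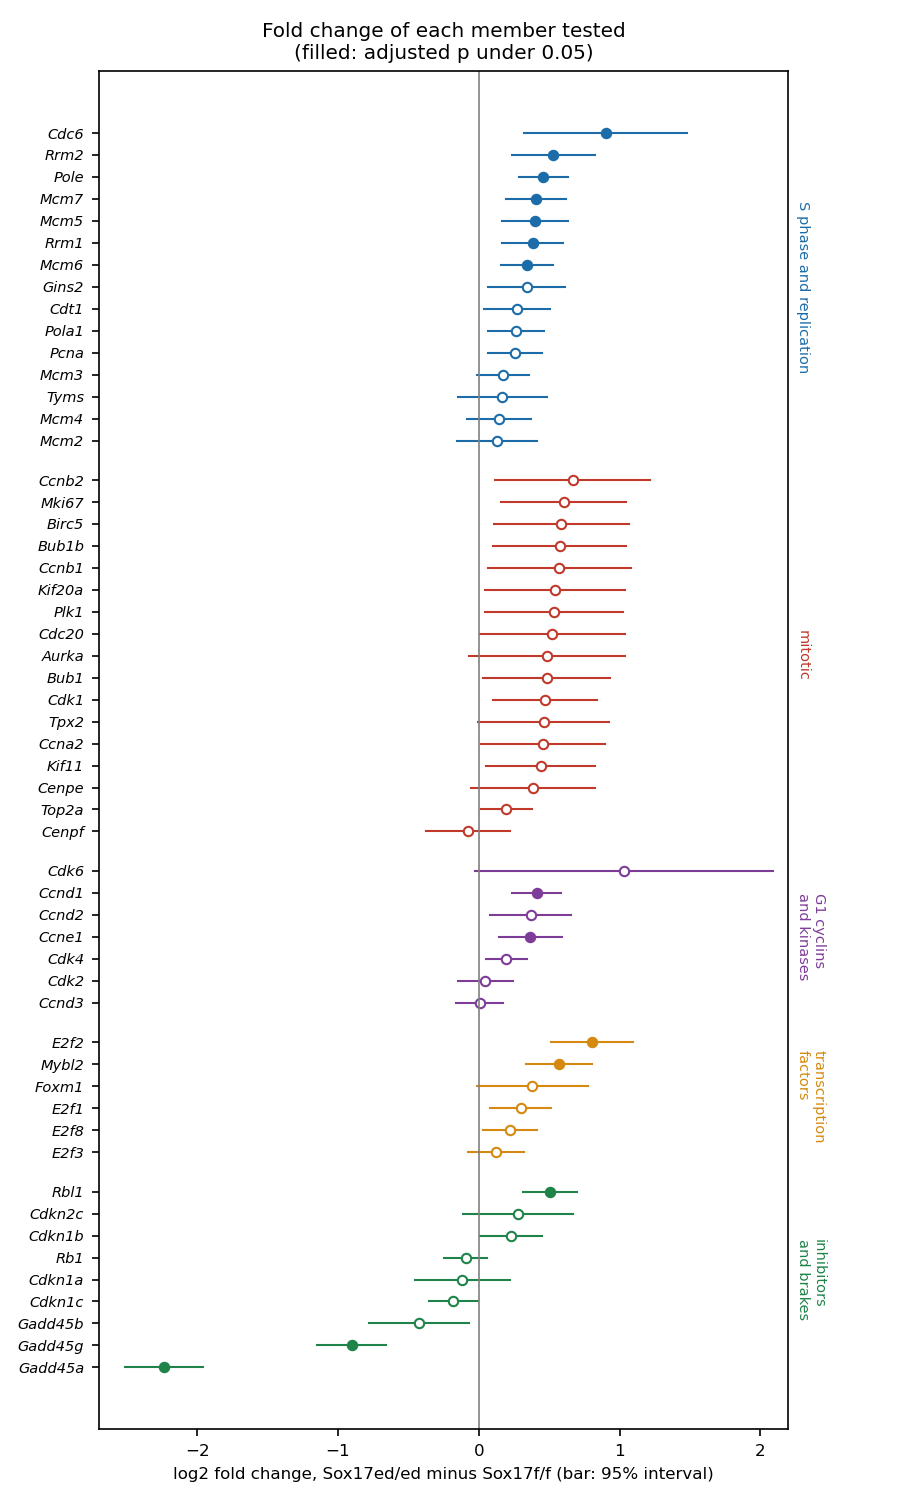
Log2 fold change (Sox17ed/ed minus Sox17f/f) of each member tested, with its 95% interval as a bar; filled points have an adjusted p below 0.05. The median SE was 0.19 in the mitotic genes and 0.09 in the S phase genes, although Cdc6 has a wider interval than any mitotic gene, and Gadd45a at -2.24 lies far below every other member.

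In the S phase and replication group, 7 of 15 genes were higher in Sox17ed/ed, none was lower and all 15 log2 fold changes were above 0, with a median of 0.34, or 1.27-fold. The called genes cover the replicative helicase (Mcm5, Mcm6, Mcm7), its loading (Cdc6), deoxynucleotide supply (Rrm1, Rrm2) and the leading strand polymerase (Pole). The upstream sequences of 2 of the helicase genes are shown because the E2F site, the best known control element of this group, occurs in both. The bases are the 250 before the start of the gene in RefSeq on GRCm38.p6, written 5′ to 3′ on the strand of the gene, with capitals for the E2F site and for CCAAT on either strand. The Mcm5 stretch is chr8:75109259-75109508 on the plus strand and the Mcm6 stretch is chr1:128359706-128359955 on the minus strand.
Mcm5: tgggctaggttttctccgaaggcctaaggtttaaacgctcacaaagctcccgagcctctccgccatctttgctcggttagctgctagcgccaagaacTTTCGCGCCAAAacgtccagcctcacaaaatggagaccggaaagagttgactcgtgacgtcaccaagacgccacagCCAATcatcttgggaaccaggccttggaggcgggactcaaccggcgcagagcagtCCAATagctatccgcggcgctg
Mcm6: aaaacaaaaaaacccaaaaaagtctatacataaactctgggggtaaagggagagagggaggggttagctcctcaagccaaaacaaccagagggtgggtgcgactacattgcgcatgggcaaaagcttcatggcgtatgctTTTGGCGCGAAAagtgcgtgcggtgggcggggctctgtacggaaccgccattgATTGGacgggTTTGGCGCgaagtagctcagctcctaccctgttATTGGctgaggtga

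The E2F site was searched as TTTCGCGC or TTTGGCGC or TTTCCCGC or TTTGCCGC on both strands, where a run such as the first capitals of Mcm5 holds overlapping matches on opposite strands. It was present in 5 of the 13 promoters found for 12 of the 15 S phase genes (38.5%), those of Cdc6, Mcm5, Mcm6, Mcm7 and Pola1, against 1.86% of all 32851 promoters in the table. CCAAT was present in 76.9% of these promoters against 33.8% of all. A match is a description of the letters and not of a bound factor, and a promoter without one says only that these letters are not in this window.

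The helicase subunits differed in how far the genotypes stood apart. Mcm5 read 11.48, 11.75 and 11.52 on the Sox17f/f arrays and 12.09, 11.94 and 11.93 on the Sox17ed/ed arrays. The 3 Sox17ed/ed arrays were all above the highest control, for a log2 fold change of 0.40 (SE 0.10, adjusted p = 0.0347). Mcm6 read 13.78, 13.86 and 13.73 in Sox17f/f and 14.23, 14.05 and 14.11 in Sox17ed/ed. Its groups did not overlap, and the log2 fold change was 0.34 (SE 0.08, adjusted p = 0.0278). Mcm7 read 12.67, 12.76 and 12.65 in Sox17f/f and 13.25, 13.07 and 12.98 in Sox17ed/ed. All Sox17ed/ed arrays were again above the controls, at a log2 fold change of 0.41 (SE 0.09, adjusted p = 0.0254). For the other 3 subunits the log2 fold changes were smaller and not called, at 0.13 for Mcm2, 0.17 for Mcm3 and 0.14 for Mcm4. The Mcm2 and Mcm4 arrays of the genotypes overlapped, and the 95% intervals of the 3 genes ran from -0.15 to 0.41.

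Cdc6, which loads the helicase at origins, read 6.01, 6.83 and 5.96 on the Sox17f/f arrays and 7.30, 7.07 and 7.13 on the Sox17ed/ed arrays. Sox17f/f replicate 2 was close to the Sox17ed/ed arrays and the other 2 controls were far below them. The log2 fold change of 0.90 was the largest called in this group and had the widest error (SE 0.24, adjusted p = 0.0472), and a second Cdc6 probe gave 0.48 (SE 0.08). Rrm1, the large subunit of ribonucleotide reductase, read 10.81, 10.86 and 11.04 in Sox17f/f and 11.25, 11.22 and 11.38 in Sox17ed/ed. The groups did not overlap and the log2 fold change was 0.38 (SE 0.09, adjusted p = 0.0313). Rrm2, the small subunit, whose level limits the enzyme in S phase, read 11.32, 11.43 and 11.77 in Sox17f/f and 12.06, 12.03 and 12.02 in Sox17ed/ed. The Sox17ed/ed arrays lay close together above every control, at a log2 fold change of 0.53 (SE 0.12, adjusted p = 0.0301). Pole, the catalytic subunit of DNA polymerase epsilon, read 10.71, 10.67 and 10.76 in Sox17f/f and 11.22, 11.22 and 11.07 in Sox17ed/ed. Both groups were tight and apart, and the log2 fold change was 0.46 (SE 0.07, adjusted p = 0.00795).

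The remaining S phase genes were not called, with log2 fold changes of 0.34 for Gins2, a helicase cofactor, 0.27 for Cdt1, which loads the helicase with CDC6, 0.27 for Pola1, the catalytic subunit of the priming polymerase, 0.26 for Pcna, the polymerase clamp, and 0.17 for Tyms, which makes thymidylate. The genotypes did not overlap for Gins2, Cdt1, Pola1 and Pcna, whose adjusted p ran from 0.0723 to 0.106, and they overlapped for Tyms. Of the 15 genes, 11 had an unadjusted p below 0.05, all higher in Sox17ed/ed, beside 33.9% of all genes tested in either direction and 16.3% higher. Only the call of Pole held in each fit without 1 array. Mcm5 and Cdc6 passed only without Sox17f/f replicate 2, Rrm1 and Rrm2 only without Sox17f/f replicate 3, Mcm6 only without Sox17ed/ed replicate 2 and Mcm7 only without Sox17ed/ed replicate 3, so that 1 S phase gene was called without Sox17f/f replicate 1 or Sox17ed/ed replicate 1, 2 without Sox17ed/ed replicate 2 or 3, 3 without Sox17f/f replicate 3 and 4 without Sox17f/f replicate 2, where Cdt1 was called as well. All log2 fold changes of these genes stayed above 0 in those fits.

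Some markers of the cell types in the tissue were called as well. The share called was 58.3% of the simple epithelial, 62.5% of the endothelial and 25% of the smooth muscle markers tested. It was 22.2% of the stromal and 12.5% of the leukocyte markers, beside 18.9% of all genes tested. Of 12 simple epithelial markers, 6 were higher in Sox17ed/ed (among them Krt19, Wfdc2, Krt7, Krt8 and Cdh1, at log2 fold changes of 2.10, 1.47, 1.46, 0.69 and 0.59) and 1 was lower (Cldn3, -1.16), all 12 being well above background on every array. The log2 fold change was above 0 for 8 of the 12 and below 0 for 4, among them the uncalled Cldn4 (-0.34), Krt18 (-0.16) and Esrp1 (-0.06). The summed signal of the 12 markers ranged from 67834 to 70384 on the Sox17f/f arrays and from 100562 to 123737 on the Sox17ed/ed arrays. Such sums add linear signals of different probes, so that bright probes weigh most. The brightest here were Krt18 (mean log2 signal 14.70 in Sox17f/f and 14.54 in Sox17ed/ed) and Wfdc2 (14.28 and 15.76). Of 8 endothelial markers, 4 were lower (Vwf -0.84, Cdh5 -0.43, Tie1 -0.36, Pecam1 -0.29) and Cldn5 was higher (0.52), with summed signals of 19047 to 23119 in Sox17f/f and 16423 to 17416 in Sox17ed/ed. Of 8 smooth muscle markers, 2 were lower (Actg2 -0.64, Cnn1 -0.48), with summed signals of 494466 to 546211 against 368433 to 443909. Of 9 stromal markers tested, Dcn was lower (-0.42) and Hoxa10 higher (0.34), with summed signals of 488132 to 506621 against 426522 to 482735. Of 8 leukocyte markers tested Csf1r was higher (0.41), with summed signals of 21922 to 22488 against 23770 to 26396, while none of the 6 neutrophil and 2 embryo markers tested was called by limma (none had an unadjusted p below 0.05). The embryo markers Pou5f1, Cdx2, Dppa3 and Zscan4c did not pass the filter on dim probes. Of these calls, those of Krt8, Cdh1, Dcn, Hoxa10, Cnn1, Pecam1, Tie1, Vwf and Csf1r were lost in at least 1 fit without 1 array, that of Pecam1 in every such fit. The part of these shifts in the cell cycle result was not tested.

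Single markers of other epithelia were called as well. Krt5, a basal keratin, was at least 5.25-fold higher (adjusted p = 0.0446), since it was not well above background on any Sox17f/f array. It was the only 1 of 5 squamous markers tested that was called (20%, beside 18.9% of all genes). For Krt5, Sox17ed/ed replicate 1 (7.80) was far above the other Sox17ed/ed arrays (4.94 and 5.33). Without that array the bound was 2.83-fold, and the call was kept only without Sox17ed/ed replicate 1 or 2. The log2 fold change was above 0 for 4 of the 5 and below 0 for 1, Trp63 (-0.12, adjusted p = 0.468 by limma). The study stained TRP63 as a basal cell marker and by qRT-PCR reported its mRNA higher in Sox17ed/ed. Among 4 mesothelial markers, Upk3b was higher (log2 fold change 1.56) and Lrrn4, not well above background on any Sox17ed/ed array, was at least 1.86-fold lower (adjusted p = 0.00335). Among 5 oviduct and ovary markers tested, Ovgp1 was lower (-2.92) and Foxj1, above background on 1 Sox17f/f array and all 3 Sox17ed/ed arrays, was higher (2.44). Their part in the cell cycle result was not tested.

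In the mitotic group, no gene of the 17 tested was called by limma, although 16 log2 fold changes were above 0 and their median, 0.49, was above that of the S phase genes. At an unadjusted p below 0.05 there were 13, all higher, beside 16.3% of all genes tested that were higher at that threshold. At the thresholds of the study's methods and with an ordinary linear model none was called, with normexp background correction 8 were and with an intensity trend in the moderation 4. Over all genes, 1505 were called higher with normexp and 1634 with the trend, beside 1312 in the main fit. The Sox17ed/ed arrays were all above the controls for 13 of the 17 genes, beside 40.6% of all genes tested that did not overlap in either direction. The controls spread more widely than in the S phase genes. The range over the 3 Sox17f/f arrays had a median of 0.74 on the log2 scale in the mitotic genes and 0.23 in the S phase genes, while over the Sox17ed/ed arrays it was 0.13 and 0.22. Sox17f/f replicate 2 was the lowest of all 6 arrays in 16 of the 17 mitotic genes, and Sox17f/f replicate 3 was the highest control in 16. Against the Sox17ed/ed mean, the median mitotic gene was 0.46 lower in Sox17f/f replicate 1, 0.88 lower in replicate 2 and 0.13 lower in replicate 3, while the S phase values were 0.38, 0.27 and 0.27. Without Sox17f/f replicate 3, 14 mitotic genes were called higher, and without any other single array none was. Over all genes, 1323 were called higher without Sox17f/f replicate 3 and 794 to 948 without any other single array. The median log2 fold change of the mitotic genes was 0.71 without Sox17f/f replicate 3 and 0.30 without Sox17f/f replicate 2.

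**Figure D3:**
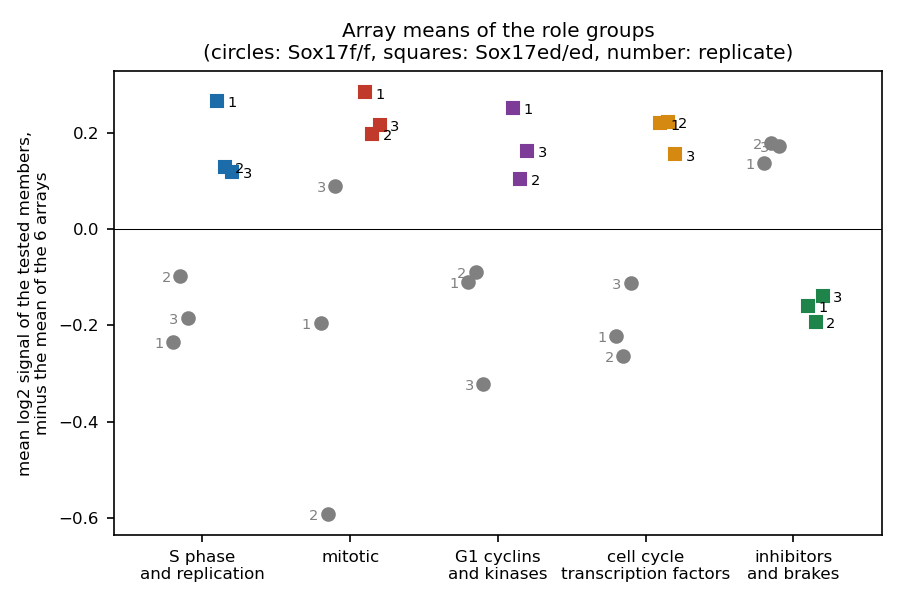
Mean log2 normalized signal of the tested members of each role group on each array, minus the mean over the 6 arrays. Circles are Sox17f/f and squares Sox17ed/ed, with the replicate number beside each. In the mitotic group the Sox17f/f arrays run from -0.59 in replicate 2 to 0.09 in replicate 3, and in every group but the inhibitors the Sox17ed/ed arrays lie above the Sox17f/f arrays.

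Mki67, which encodes the proliferation antigen Ki67 and whose protein the study stained, read 12.62, 12.17 and 12.90 on the Sox17f/f arrays and 13.22, 13.09 and 13.19 on the Sox17ed/ed arrays. The Sox17ed/ed arrays lay within 0.13 of each other and above every control, replicate 3 of the controls being the nearest. The log2 fold change was 0.60 (SE 0.18), with a 95% interval of 0.16 to 1.04, and was not called (adjusted p = 0.0694). A second Mki67 probe gave 0.47 (SE 0.19). The upstream bases of Mki67 and of Ccnb2, the mitotic member with the highest log2 fold change, are shown because many mitotic promoters carry CCAAT and the cell cycle homology region (CHR). Capitals mark CCAAT and TTTGAA, the letters searched for the CHR, on either strand. The stretches are chr7:135716380-135716629 and chr9:70421555-70421804, both on the minus strand of GRCm38.p6.
Mki67: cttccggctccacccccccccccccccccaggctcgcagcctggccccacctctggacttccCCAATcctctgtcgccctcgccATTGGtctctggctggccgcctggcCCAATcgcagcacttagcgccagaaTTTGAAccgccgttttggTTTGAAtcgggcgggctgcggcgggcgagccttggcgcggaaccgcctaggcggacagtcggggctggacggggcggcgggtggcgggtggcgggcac
Ccnb2: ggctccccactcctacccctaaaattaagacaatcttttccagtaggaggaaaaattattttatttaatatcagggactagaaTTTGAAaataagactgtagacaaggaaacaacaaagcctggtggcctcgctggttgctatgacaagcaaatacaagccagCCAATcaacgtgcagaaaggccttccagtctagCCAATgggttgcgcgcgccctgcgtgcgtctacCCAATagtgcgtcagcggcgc

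CCAAT was present in 13 of the 14 promoters found for 14 of the 18 mitotic genes (92.9%), and the CHR, searched as TTTGAA, in 6 (42.9%), against 33.8% and 16.0% of all promoters in the table. The 6 were those of Ccnb2, Cdc20, Cdk1, Kif11, Mki67 and Top2a. In Ccnb2 the TTTGAA lies 167 bases before the start, farther out than CCAAT at 87, 54 and 21. Whether such a match acts as a CHR was not tested. The CHR was present in 1 of the 13 S phase promoters, that of Mcm2, and the E2F site in 1 mitotic promoter, that of Cdk1.

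The other mitotic genes had log2 fold changes between -0.08 and 0.67, with adjusted p from 0.0843 to 0.704. Among the cyclins and the kinase that drive entry into mitosis these were 0.67 for Ccnb2, 0.57 for Ccnb1, 0.46 for Ccna2 and 0.47 for Cdk1, whose other probe above background gave -0.18 (SE 0.21). For the kinases and checkpoint proteins of the spindle they were 0.57 for Bub1b, 0.54 for Plk1, 0.49 for Aurka, 0.48 for Bub1, 0.59 for Birc5 and 0.52 for Cdc20, the activator of the anaphase promoting complex. The spindle and kinesin genes gave 0.54 for Kif20a, 0.46 for Tpx2, 0.44 for Kif11 and 0.39 for the centromere motor Cenpe, and a second Tpx2 probe gave 0.03 (SE 0.15). Top2a, which untangles sister chromatids, was at 0.20, and Cenpf, a kinetochore protein, at -0.08. Of the 17 genes including Mki67, 13 had a 95% interval above 0.

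Among the G1 cyclins and kinases, 2 of 7 tested were higher, both of them cyclins, and none was lower, with a median of 0.37. Ccnd1, the D-type cyclin that responds to growth factors, read 11.94, 12.07 and 12.02 in Sox17f/f and 12.47, 12.34 and 12.44 in Sox17ed/ed. The groups were apart, and the log2 fold change of 0.41 (SE 0.07, adjusted p = 0.0113) passed the threshold in each fit without 1 array. Ccne1, the E-type cyclin that drives entry into S phase, read 10.31, 10.46 and 10.46 in Sox17f/f and 10.91, 10.64 and 10.79 in Sox17ed/ed. Its groups were also apart, at 0.37 (SE 0.09, adjusted p = 0.0419), but without 1 array it passed only when Sox17ed/ed replicate 2 was left out, and a second, noisier probe gave 0.24 (SE 0.27). The group count was therefore 1 without Sox17f/f replicate 1 or 3 or Sox17ed/ed replicate 1 or 3, Ccnd1 alone. The kinase partner of the D-type cyclins, Cdk4, was at 0.20 with groups apart (95% interval 0.05 to 0.34, adjusted p = 0.0678), and Ccnd2 at 0.37 (0.08 to 0.66, adjusted p = 0.0811). Ccnd3 (0.01) and Cdk2, the partner of the E-type cyclins (0.05), overlapped between the genotypes. Cdk6 had a log2 fold change of 1.03 with an interval of -0.03 to 2.09, and was above background on only 1 Sox17f/f array and 2 Sox17ed/ed arrays.

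Of the 6 transcription factors, E2f2 and Mybl2 were higher in Sox17ed/ed and no factor was lower. E2f2, an activating E2F, read 9.65, 9.61 and 10.00 on the Sox17f/f arrays and 10.63, 10.46 and 10.58 on the Sox17ed/ed arrays. The groups stood apart by more than the range of either, with a log2 fold change of 0.80, or 1.75-fold (SE 0.12, adjusted p = 0.00635). Mybl2, the MYB factor of dividing cells, read 9.86, 9.92 and 10.17 in Sox17f/f and 10.55, 10.59 and 10.50 in Sox17ed/ed. It was 1.48-fold higher (log2 fold change 0.57, SE 0.10, adjusted p = 0.0109), and a second probe gave 0.58 (SE 0.09). Both calls held in each fit without 1 array. The other activators were not called, E2f1 at 0.30 with groups apart (adjusted p = 0.0676) and E2f3 at 0.12, whose other probe gave -0.14 (SE 0.13). E2f8, an atypical E2F that represses, was at 0.22 with groups apart (adjusted p = 0.11). Foxm1, which acts at the entry into mitosis, was at 0.38 (adjusted p = 0.159). Its control values on this probe followed those of the mitotic genes, at 8.78, 8.45 and 9.09. A second Foxm1 probe gave 0.33 (SE 0.09), and its controls of 5.72, 5.88 and 5.97 did not have replicate 2 lowest. Foxm1 was called when the probe with the smallest p was used.

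Of the 9 inhibitors and brakes, 2 were called lower (22.2%) and 1 higher (11.1%), beside 10.1% and 8.84% of all genes. Their median log2 fold change was -0.12. The upstream bases of Gadd45a, which had the largest change of any member, lie on the minus strand at chr6:67037408-67037657 in GRCm38.p6. They hold CCAAT (capitals) once, and neither the E2F site nor the CHR.
Gadd45a: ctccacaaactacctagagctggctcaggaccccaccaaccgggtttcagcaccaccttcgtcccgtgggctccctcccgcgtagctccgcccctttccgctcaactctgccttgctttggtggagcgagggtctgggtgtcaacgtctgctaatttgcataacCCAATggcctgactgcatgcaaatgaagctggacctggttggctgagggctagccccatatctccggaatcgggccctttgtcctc

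Gadd45a, a stress-induced gene whose product binds PCNA and CDK1, read 10.05, 10.07 and 9.69 on the Sox17f/f arrays and 7.74, 7.66 and 7.70 on the Sox17ed/ed arrays. Every Sox17ed/ed array was far below every control, and the fall was 4.71-fold (log2 fold change -2.24, SE 0.11, adjusted p = 9.06e-05). Gadd45g, of the same family, read 13.21, 13.41 and 13.15 in Sox17f/f and 12.45, 12.21 and 12.40 in Sox17ed/ed. The groups did not overlap and the fall was 1.87-fold (log2 fold change -0.90, SE 0.10, adjusted p = 0.00218). Gadd45b was also lower on every Sox17ed/ed array, at -0.43 with a 95% interval of -0.78 to -0.07, but was not called (adjusted p = 0.0947).

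**Figure D4:**
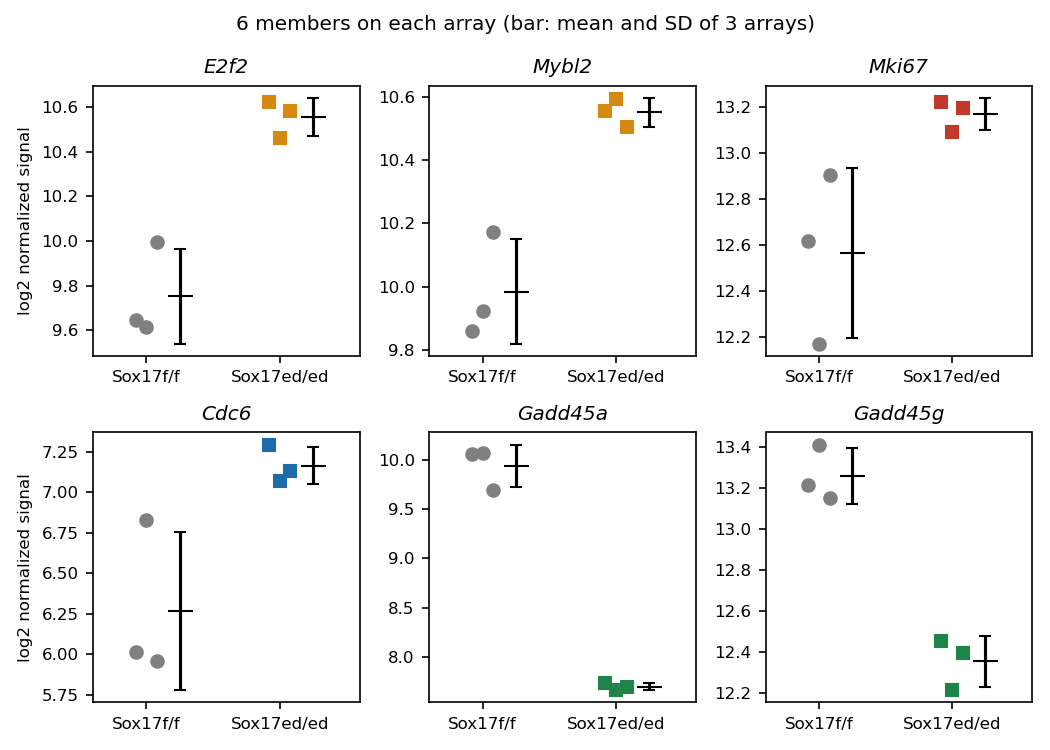
Log2 normalized signal of 6 members on each of the 3 Sox17f/f arrays (circles) and 3 Sox17ed/ed arrays (squares), with the mean and SD as a bar. The genotypes do not overlap in any panel. The Mki67 controls spread from 12.17 to 12.90, while Gadd45a sits near 7.7 on every Sox17ed/ed array.

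Rbl1, which encodes the retinoblastoma relative p107 and is itself made in cycling cells, was the 1 brake that was higher. It read 8.78, 8.86 and 8.94 in Sox17f/f and 9.43, 9.26 and 9.40 in Sox17ed/ed. The groups were apart, at a log2 fold change of 0.51 (SE 0.08, adjusted p = 0.0077), but its other probe above background gave -0.19 (SE 0.19) and the call was lost when the probes of the gene were averaged. The classical inhibitors of the cyclin dependent kinases were not called. Cdkn1a (p21) was at -0.12 and overlapped between genotypes, Cdkn1b (p27) was at 0.23 with Sox17ed/ed above (95% interval 0.01 to 0.45), Cdkn1c (p57) was at -0.18 with Sox17ed/ed below (-0.35 to -0.01), and Cdkn2c (p18) was at 0.28 (-0.11 to 0.67). Their adjusted p ran from 0.133 to 0.603. Rb1 was at -0.09 (-0.25 to 0.06, adjusted p = 0.355).

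The rest of the pathway was read from 4 further lists, which were also chosen with earlier results of these data known. Of 45 other S phase and replication genes tested, 19 were higher in Sox17ed/ed (42.2%) and none lower, with a median of 0.33. Over all genes tested, 8.84% were called higher and 10.1% lower. Among the highest called were Dscc1, of the cohesion clamp loader (0.77), and the histone chaperone Asf1b (0.71), and the lowest called were Dut (0.29), Rpa1 (0.29) and Rpa3 (0.25). Of 52 other mitotic genes, 12 were higher (23.1%), none lower and all 52 were above 0 (49.7% of all genes), with a median of 0.49. The highest called were Incenp, of the chromosome passenger complex (0.79), the mitotic kinase Pbk (0.72) and Spc25, of the kinetochore (0.70), and the lowest called Tacc3 (0.52), Dlgap5 (0.48) and Cdc25b (0.41). The controls of these 52 genes were ordered like those of the mitotic members, Sox17f/f replicate 2 being lowest of the controls in 47 and replicate 3 highest in 50, and the count was 34 without Sox17f/f replicate 3, 4 without Sox17f/f replicate 2, 2 without Sox17ed/ed replicate 2 and 1 without any of the other 3 arrays. The other S phase count was 7 without Sox17f/f replicate 1, 10 without Sox17f/f replicate 2 and 11 without Sox17ed/ed replicate 1 or 3. Over all genes, 1323 were called higher without Sox17f/f replicate 3 and 794 to 948 without any other single array.

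Of 21 other regulators of G1 and of the kinases, 5 were higher (23.8%) and 1 lower (4.76%), beside 8.84% and 10.1% of all genes. Mycn, a MYC family activator, was highest (1.81), followed by Lin9 (0.57) and Tfdp2 (0.44), then Pkmyt1 (0.44) and Lin54 (0.25). LIN9 and LIN54 are subunits of the complex that carries MYBL2. Fbxw7, which targets cyclin E for destruction, was lower (-0.83), fitted on 5 arrays because 1 Sox17ed/ed spot was marked as an outlier. The higher count was 2 without Sox17f/f replicate 1 or 2 and 3 without Sox17ed/ed replicate 2 or 3, and the call of Fbxw7 was kept only without Sox17f/f replicate 3 or Sox17ed/ed replicate 2. Of 19 other inhibitors and brakes, 6 were lower (31.6%) and 3 higher (15.8%), beside 10.1% and 8.84% of all genes. The lowest were the stress-responsive kinase Plk2 (-1.25), the antiproliferative factor Btg2 (-1.20) and Plk3 (-0.88), and the highest were the CDK4 and CDK6 inhibitor Cdkn2b (1.35), Trp53inp1 (0.69) and Sesn1 (0.45). The higher count was 1 without Sox17ed/ed replicate 1.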

How the data were processed

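Uterine RNA of 3 Sox17f/f and 3 Sox17ed/ed mice was measured, and the samples were grouped by the genotype in their titles. The authors deposited 1 scanner file per mouse, from Feature Extraction 11.0.1.1 per the file headers (the submitters' processing notes name version 9.1), and a table of processed values. The deposited intensity used was the processed signal, background subtracted and detrended within each array and not normalized between arrays; the deposited table differed from its probe means by at most 0.191%. The median processed signal lay between 39.3 and 49.6. Subtracted background makes dim values uncertain on a log scale, and with 3 arrays a genotype the number of arrays limits the precision.

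Control spots and the 169 to 302 spots an array marked as outliers were left out, log2 signals were quantile normalized as the methods name, and repeated spots were averaged. A probe was kept if it was marked well above background by 3 or more of the 6 arrays and had a value on at least 2 arrays of each genotype, and the kept probe of highest mean signal was used for its gene. Of 55681 probes, 26582 were named by accession through RefSeq's GRCm38.p6 gene table (the array design is annotated on mm9), 16194 carry a genome position and 12905 another accession. The comparison used lmFit and eBayes of limma 3.58.1 (R 4.3.3), Benjamini-Hochberg adjusted p values across the genes tested, and 95% intervals. Tallies and plots were made in Python 3.11.15. The fit was tested on simulated data.

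Where all arrays of 1 genotype were too dim for a probe, only a bound is given: the mean of the brighter genotype against the mean, over the arrays of the dimmer one, of the higher of the probe's value and the lowest signal well above background. Called members and Mki67 were given array by array, and in each further list the called genes with the 3 highest and 3 lowest log2 fold changes were named, with every called marker, except for genes that are not reported here. The members, lists and this rule were chosen with earlier results of these data known, and the printed promoters and several second probes were picked with values seen. Promoter sequences are RefSeq's, matched by symbol for 43 of the 56 members (49 promoters).

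Alternatives were a shift by each array's 75th percentile, normexp background correction (offset 50, on the median spot signal in place of the mean, which was not used here), the deposited table, no filter or all 6 arrays above background, the mean of a gene's probes or its probe with the smallest p, an intensity trend, an ordinary linear model, the replicate number as a block, the methods' thresholds, and leaving out each array.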

Additional observations from a re-analysis of the deposited data

How the results depend on the processing

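E2f2, Mybl2, Gadd45a and Gadd45g passed under all 17 alternatives and no called member changed sign, while 10 of the 14 called members lost the call under at least 1 alternative and 23 of the 40 not called passed under at least 1. With 3 arrays a genotype, differences of the size seen in the S phase genes lie near the threshold. Beyond the fewer arrays, or the more genes tested without a filter, the cause of these shifts was not tested.

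Over all genes the count of 2808 became 3002 with normexp, 2079 without a filter and 3311 with the intensity trend. It was 1926 with an ordinary linear model, 1857 at the methods' thresholds and 1650 to 2657 without 1 array. Members called higher (12) were 21 with normexp, 5 without a filter, 20 with the intensity trend, 7 with an ordinary linear model, 5 at the methods' thresholds and 5 to 22 without 1 array. S phase members (7) were 1 without a filter, 2 with an ordinary linear model, 2 at the methods' thresholds and 1 to 4 without 1 array. Mitotic members (0) were 8 with normexp, 4 with the trend and 0 to 14 without 1 array. G1 members (2) were 1 without a filter, 1 with the mean of a gene's probes, 4 with the trend, 0 at the methods' thresholds and 1 to 2 without 1 array. The 1 brake called higher became 0 with the mean of a gene's probes. Other S phase genes (19) were 12 without a filter, 12 with an ordinary linear model, 11 at the methods' thresholds and 7 to 15 without 1 array. Other mitotic genes (12) were 21 with normexp, 3 without a filter, 20 with the trend, 1 with an ordinary linear model and 1 to 34 without 1 array. Other G1 regulators called higher (5) were 3 with normexp, without a filter and with an ordinary linear model, 2 at the methods' thresholds and 2 to 5 without 1 array, and the 1 called lower was 0 with the deposited table, without a filter, with all 6 arrays above background and with an ordinary linear model, and 0 to 1 without 1 array. Other brakes called higher (3) were 1 with an ordinary linear model and 1 to 3 without 1 array.

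The median log2 fold change of the G1 group fell to 0.20 with normexp, and without 1 array that of the brakes ran from -0.16 to -0.073 and that of all members from 0.29 to 0.40. Of the members not called, 5 near 0 changed sign. Cenpf was 0.025 with normexp and -0.17 to 0.0033 without 1 array. Ccnd3 was -0.066 with the percentile shift, -0.036 with normexp, -0.015 with the deposited table and -0.028 to 0.049 without 1 array. Cdk2 was -0.018 with normexp, E2f3 was -0.0095 with the mean of its probes, and Cdkn1a was -0.21 to 0.0032 without 1 array.

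The replicate numbers showed no sign of pairing the mice, although 3 arrays a genotype cannot exclude it. Deviations from the group means correlated at 0.06, -0.11 and 0.00 between arrays of the same number, and at -0.08 to 0.08 between arrays of different numbers. With the replicate block, 1856 genes were called, 5 members higher, 2 of them S phase genes and 0 G1 members, with 10 other S phase genes, 5 other mitotic genes and 2 other G1 regulators higher and 0 lower.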
